A study of Ziziphus jujuba var. spinosa with 24 samples.

Results

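The genes described here are those whose transcripts peaked in leaves of sour jujube (Ziziphus jujuba var. spinosa) after 12 h of osmotic drought, in diploid and in autotetraploid plants alike, and were back near the control level at 48 h. They were chosen from the measured values. Raw counts were turned into counts-per-million values (CPM) by library totals, and 0.5 was added to each group mean. A gene with a LOC identifier was kept if, in each ploidy, its 12 h mean was at least 5, at least 4 times the control mean and at least 2 times the 6 h mean. Its 3 libraries at 12 h also had to lie above all control and all 6 h libraries, and its ratio of 48 h to control had to lie between 0.5 and 2. Of 32527 genes in the count table, 29293 carry a LOC identifier, and 25 of these met every criterion. They are called the 12 h peak genes below.

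Leaf RNA was sequenced from 8 groups of 3 libraries, 24 in all. The diploid plants are labelled wild type and the autotetraploid plants are their chromosome-doubled counterparts; each ploidy was sampled untreated and after 6, 12 and 48 h of drought. Drought was imposed with PEG6000, a polymer that lowers the water potential of the nutrient solution, raised in daily steps to a final 20%. All plants had been propagated in tissue culture for more than 20 generations, then grown for 30 days in culture and 45 days in rooting medium under 16 h of light and 8 h of dark at 25 °C. Before treatment all were moved to a dilute Hoagland and Arnon nutrient solution, kept first in darkness and then in light. The labels do not say how many lines this covers, nor whether the 3 libraries of a group came from separate plants. A single control group per ploidy served all 3 times. The labels give neither the hour of day of each harvest nor the PEG step that each time refers to, so duration of drought, hour of day and PEG step cannot be told apart in any contrast between times.

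As background, a leaf losing water makes abscisic acid, closes its stomata and switches transcription towards protective proteins, osmolyte synthesis and signalling, often in successive waves. Many leaf genes also cycle over the day under the circadian clock and light, so that a transcript can be high at some hours and low at others without any stress.

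The libraries held 30750412 to 50404402 counts (median 37199250), so that 1 CPM stands for at least 30 counts. RCA1 and RCA2, which encode rubisco activase and mark green leaf tissue, were detected in every library. RCA1 ranged from 2466 to 3584 CPM in the control libraries and from 137 to 238 CPM in the 12 h libraries. RCA2 ranged from 7969 to 12294 CPM in control and from 1717 to 3826 CPM at 12 h. Both leaf markers were thus lowest at the harvest at which the 12 h peak genes were highest. Whether a change in the makeup of the leaf RNA bears on the peak was not tested, and in bulk leaves fewer cells of a type and less RNA per cell cannot be told apart. The TMM factors, which correct library totals for composition, were 0.934 to 1.11. Scaling by totals in place of TMM raised the median of all genes tested at 12 h against control by 0.13 on the log2 scale in the diploid and by 0.15 in the autotetraploid, and at 12 h against 6 h by 0.11 and 0.13. The ratios of the rule, which uses totals, are higher by that much; with TMM-scaled CPM 20 of the 25 genes met the rule, and LOC107412240, LOC107413074, LOC107416060, LOC107426319 and LOC107432392 did not.

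The criteria left few genes at each step. In the diploid 15972 LOC genes reached the level at 12 h, 240 of these also reached 4 times control, 74 of those were at least 2 times their 6 h mean, and 45 had no overlapping libraries. In the autotetraploid the same steps left 16053, 294, 77 and 45 genes. Of the 45 diploid genes with a 12 h peak, 37 were within a factor of 2 of control at 48 h, 8 were still at 2 times control or more, and 0 were at 0.5 times or less. The autotetraploid counts were 38, 7 and 0. A 12 h peak was shared by 27 genes before the 48 h criterion and by 25 after it. The genes nearest inside the threshold of 4, by the smaller of their 12 h to control ratios, were LOC107426319 at 4.20, LOC107415240 at 4.45 and LOC107416060 at 4.49. Nearest outside it, with every other criterion met, were LOC107421462 at 3.79, LOC107420373 at 3.73 and LOC107412622 at 3.72. The margin between the nearest gene inside and the nearest outside was thus small beside the spread of ratios among the 25 genes.

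Neither the deposited tables nor the RefSeq gene table used here (assembly ASM3175591v1) gives a symbol or description for any of the 25 genes, so they are named by identifier and no function is assigned. A match to it was found for 23 of the 25, all 23 of them protein coding, on 8 chromosomes: 4 each on chromosomes 10 and 12, 3 each on chromosomes 1, 4, 5 and 9, 2 on chromosome 8 and 1 on chromosome 11. LOC107421344 and LOC107418084 were not matched. No pair of the 23 placed genes was adjacent. The closest pair, LOC107427080 and LOC107427085 on chromosome 9, had 16 genes between them, and LOC107410828 and LOC107410922 on chromosome 10 had 28. A gene overlapped another gene in 4 cases, and strand was not stated for the counting, so reads of overlapping genes cannot be told apart. The counted partners moved less at 12 h than the genes they overlap. LOC107432361, which overlaps LOC107432392, averaged 7.50 CPM in control and 11.7 at 12 h in the diploid, and 8.23 and 13.7 in the autotetraploid. LOC107411019, which overlaps LOC107411020, averaged 1.62 and 2.52 CPM in the diploid and 1.91 and 2.78 in the autotetraploid. LOC107415490, which overlaps LOC107415487, averaged 26.5 and 31.4 CPM in the diploid and 23.3 and 28.6 in the autotetraploid. The partner of LOC107410922 is a tRNA gene with no row in the count table. The transcript length implied by a gene's count and FPKM (fragments per kilobase of transcript, scaled to library size) had a median of 1768 bases over the 25 genes, from 826 to 3323.

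Because the rule used every library, ratios of 12 h to control, 6 h and 48 h are given as a description, with no test. Ratios are of group means with 0.5 CPM added. The 12 h to control ratio had a median of 6.74 in the diploid (from 4.45 to 49.7) and of 9.83 in the autotetraploid (from 4.20 to 59.0). The 48 h to control ratio had a median of 1.04 in the diploid and 1.06 in the autotetraploid. For all 25 genes, every 12 h library lay above every 48 h library in both ploidies. The rule did not ask this of single libraries. However, its limits on the ratios to control already placed each 12 h mean above the 48 h mean. The separation is therefore largely fixed by the choice of genes, and no result is read from it. The 12 h to 48 h ratio ranged from 3.04 to 47.9 in the diploid and from 2.80 to 54.7 in the autotetraploid. Summed over the 25 genes, transcripts came to 432 ± 35.5 CPM in diploid control, 645 ± 43.3 at 6 h, 3744 ± 148 at 12 h and 555 ± 94.7 at 48 h (SD, n = 3). The autotetraploid sums were 397 ± 19.4, 765 ± 61.2, 3594 ± 560 and 477 ± 70.1 CPM (SD, n = 3).

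**Figure D1:**
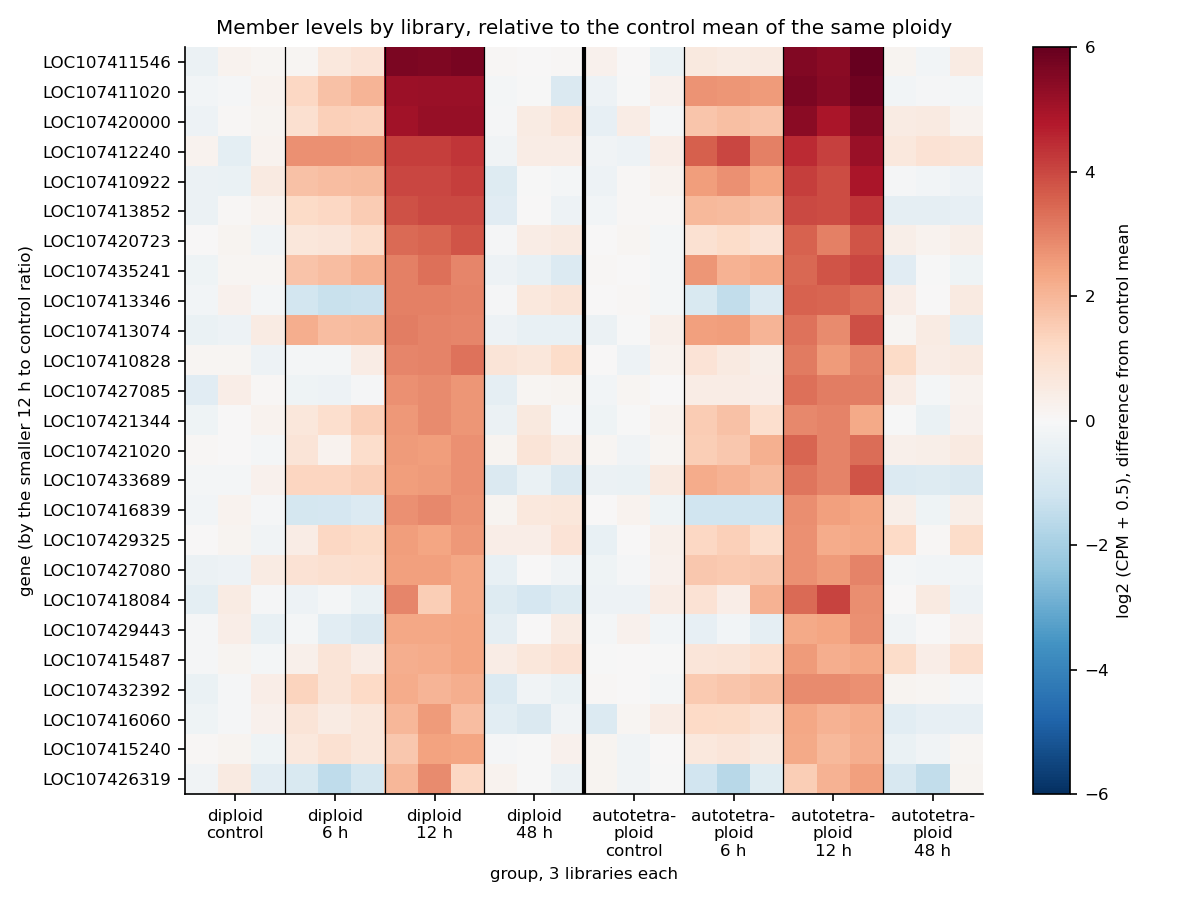
Levels of the 25 genes in each of the 24 libraries, as log2 (CPM + 0.5) minus the control mean of the same ploidy; rows are ordered by the smaller of the 12 h to control ratios, and colour runs from blue (below control) to red (above control). The 12 h columns are red in every row. In 3 rows (LOC107413346, LOC107416839 and LOC107426319) all 6 h libraries lay below all controls in both ploidies. The 6 h libraries of LOC107429443 also lay below its control mean in each ploidy, but overlapped the control libraries. Its 6 h to control ratio was 0.708 in the diploid and 0.763 in the autotetraploid.

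The genes with the steepest peaks were low in control and at 48 h. LOC107411546 stood at 0.0851, 0.355 and 0.313 CPM in control, 0.328, 0.672 and 0.823 at 6 h, 36.6, 35.9 and 38.1 at 12 h and 0.278, 0.271 and 0.292 at 48 h in the diploid. Autotetraploid levels were 0.293, 0.169 and 0 CPM in control, 0.495, 0.426 and 0.458 at 6 h, 30.4, 27.0 and 56.8 at 12 h and 0.222, 0.0786 and 0.418 at 48 h. Its 12 h libraries were far above all others, its other groups lay below 1 CPM, and its 12 h to control ratio was 49.7 in the diploid and 59.0 in the autotetraploid. Its control means lay below the 0.5 CPM added, which lowers these ratios. Without it they were 147 in the diploid and 247 in the autotetraploid, resting on few control reads. LOC107411020 stood at 1.83, 2.02 and 2.50 CPM in control, 5.67, 8.24 and 10.2 at 6 h, 91.1, 93.9 and 95.8 at 12 h and 1.90, 2.06 and 0.925 at 48 h in the diploid. The autotetraploid libraries held 1.09, 1.41 and 1.86 CPM in control, 12.3, 11.6 and 10.9 at 6 h, 96.3, 86.1 and 112 at 12 h and 1.26, 1.34 and 1.31 at 48 h. Its 6 h libraries were all above control, and the ratios at 12 h were 35.9 and 50.4. LOC107420000 stood at 0.553, 0.875 and 0.938 CPM in control, 2.02, 2.98 and 2.82 at 6 h, 41.2, 48.4 and 47.2 at 12 h and 0.714, 1.33 and 1.61 at 48 h in the diploid. In the autotetraploid it stood at 0.320, 1.07 and 0.595 CPM in control, 3.18, 3.59 and 3.32 at 6 h, 48.2, 34.7 and 51.8 at 12 h and 1.11, 1.21 and 0.837 at 48 h. Here too the 6 h libraries lay between control and 12 h without overlap, and the ratios at 12 h were 35.8 and 39.1.

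LOC107412240 had the largest 6 h value relative to control, 6.67 times in the diploid and 12.0 times in the autotetraploid. It stood at 2.79, 1.37 and 2.79 CPM in control, 18.6, 18.3 and 18.0 at 6 h, 49.0, 49.0 and 54.3 at 12 h and 1.96, 3.36 and 3.29 at 48 h in the diploid. Autotetraploid levels were 1.31, 1.15 and 2.25 CPM in control, 24.2, 32.7 and 16.1 at 6 h, 46.0, 35.3 and 75.0 at 12 h and 2.74, 3.25 and 3.10 at 48 h. The lowest autotetraploid 12 h library was only slightly above the highest 6 h library. LOC107435241 and LOC107413074 were also well above control at 6 h, by 3.73 and 3.94 times in the diploid and by 5.07 times each in the autotetraploid. LOC107413074 was the nearest to the limit on the 12 h to 6 h ratio, at 2.01 in the diploid and 2.05 in the autotetraploid. LOC107420723 was lower at 6 h, at 1.76 and 1.95 times control, and reached 11.8 and 11.0 times at 12 h.

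Across genes, levels can be compared as FPKM, the authors' values per length. At 12 h, averaged over the 6 libraries, which the authors gave in a separate table for each ploidy, LOC107410922 was highest at 799.6 FPKM. It was followed by LOC107413852 at 287, LOC107416839 at 232, LOC107410828 at 226, LOC107429443 at 167 and LOC107415487 at 88.9 FPKM. The median of the 25 genes was 33.0 FPKM and the lowest, LOC107418084, was at 3.98.

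The most abundant, LOC107410922, stood at 39.2, 38.0 and 73.4 CPM in control, 169, 183 and 186 at 6 h, 805, 809 and 895 at 12 h and 29.5, 49.6 and 45.9 at 48 h in the diploid. The autotetraploid libraries held 32.8, 43.0 and 46.9 CPM in control, 238, 274 and 210.1 at 6 h, 731, 616 and 1248 at 12 h and 38.9, 37.0 and 33.1 at 48 h. Diploid control replicate 3 was high among its controls and autotetraploid 12 h replicate 3 was high among its 12 h libraries, while in each ploidy the 12 h libraries lay above all others. The 12 h to control ratio was 16.5 in the diploid and 20.9 in the autotetraploid. LOC107413852 stood at 13.4, 18.0 and 20.1 CPM in control, 39.3, 41.9 and 49.9 at 6 h, 249.8, 275 and 276 at 12 h and 10.6, 17.2 and 13.8 at 48 h in the diploid. In the autotetraploid it stood at 13.4, 15.8 and 15.6 CPM in control, 59.8, 56.5 and 52.0 at 6 h, 242, 232 and 305 at 12 h and 10.1, 10.1 and 10.3 at 48 h. At 48 h its autotetraploid libraries lay below all 3 controls, whereas the diploid ones overlapped theirs.

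The genes differed in what they did before the peak. For 17 of the 25 all 6 h libraries lay above all controls in both ploidies. In these the median 6 h to control ratio was 2.16 in the diploid and 3.33 in the autotetraploid, and the median 12 h to 6 h ratio was 2.84 and 2.67. For 3 genes all 6 h libraries lay below all controls in both ploidies, with 6 h to control ratios of 0.424 to 0.516 in the diploid and 0.437 to 0.489 in the autotetraploid. These 3 had 12 h to 6 h ratios of 9.86 to 18.9 in the diploid and 9.20 to 22.5 in the autotetraploid. The remaining 5, LOC107411546, LOC107410828, LOC107427085, LOC107418084 and LOC107429443, had 6 h libraries that overlapped control in at least 1 ploidy. LOC107427085 and LOC107418084 were chosen for naming after their values were seen. No gene had its 6 h libraries above control in 1 ploidy and below it in the other. The share of all genes with 6 h libraries placed in these ways is not given here, so the counts only describe the 25 genes.

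**Figure D2:**
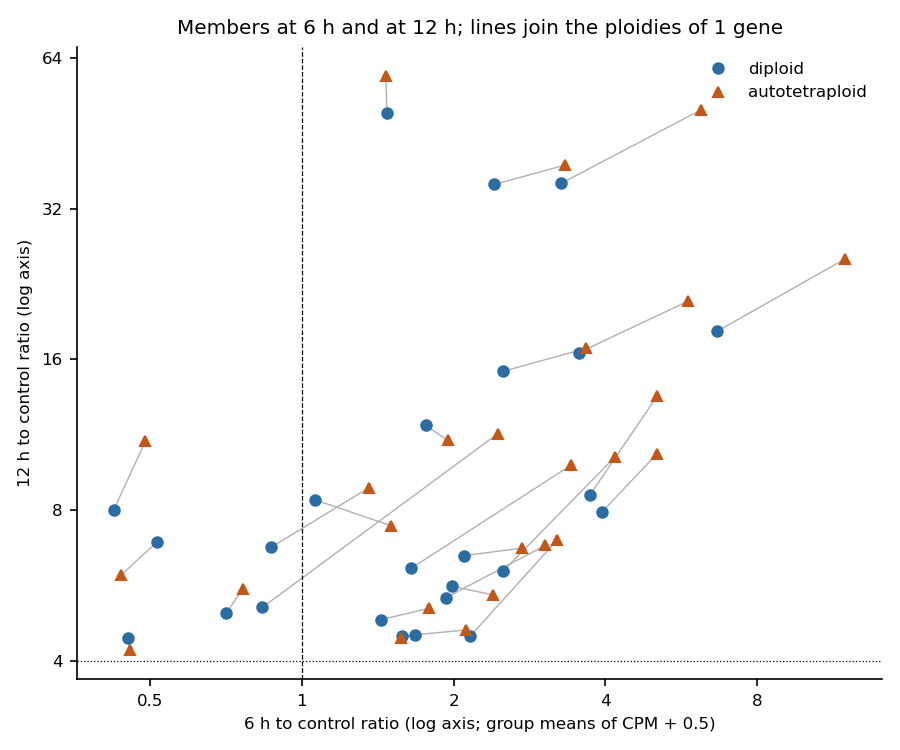
Ratio of 6 h to control (horizontal, log axis) against ratio of 12 h to control (vertical, log axis) for the 25 genes, from group means of CPM + 0.5; blue circles are diploid, orange triangles autotetraploid, and grey lines join both ploidies of 1 gene. The dashed line marks no change at 6 h and the dotted line the threshold of 4; the 3 genes near 0.5 on the horizontal axis lie there in both ploidies.

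The dipping genes included LOC107416839, which was among the more abundant. It stood at 88.0, 112 and 91.3 CPM in control, 46.6, 48.0 and 55.0 at 6 h, 658, 726 and 641 at 12 h and 108, 150.5 and 157 at 48 h in the diploid. Autotetraploid levels were 116, 132 and 94.8 CPM in control, 49.5, 50.2 and 49.3 at 6 h, 802, 639 and 598 at 12 h and 145, 97.0 and 144 at 48 h. Its 6 h libraries were close together and all below control in each ploidy. LOC107413346 stood at 9.64, 13.0 and 9.94 CPM in control, 4.87, 3.97 and 4.11 at 6 h, 92.5, 91.3 and 88.4 at 12 h and 10.5, 17.4 and 19.0 at 48 h in the diploid. The autotetraploid libraries held 8.66, 8.91 and 7.89 CPM in control, 4.34, 2.71 and 4.63 at 6 h, 104, 102 and 89.1 at 12 h and 11.3, 8.73 and 12.5 at 48 h. Its 12 h to control ratio was 8.02 in the diploid and 11.0 in the autotetraploid. LOC107426319 stood at 2.04, 3.80 and 1.41 CPM in control, 1.03, 0.526 and 0.893 at 6 h, 10.9, 20.1 and 6.47 at 12 h and 2.92, 2.39 and 1.80 at 48 h in the diploid. In the autotetraploid it stood at 2.88, 2.11 and 2.46 CPM in control, 0.845, 0.452 and 1.29 at 6 h, 7.75, 12.2 and 16.1 at 12 h and 1.01, 0.577 and 2.82 at 48 h. Its 12 h libraries spread widely, from 6.47 to 20.1 CPM in the diploid, and it was the gene nearest to the threshold of 4.

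LOC107410828 was flat at 6 h in the diploid and stayed raised at 48 h. It stood at 89.2, 89.1 and 66.9 CPM in control, 75.1, 74.7 and 111 at 6 h, 634, 654 and 779 at 12 h and 139.6, 131 and 175 at 48 h in the diploid. Autotetraploid levels were 64.8, 51.8 and 73.4 CPM in control, 113, 90.8 and 81.9 at 6 h, 553, 371 and 501 at 12 h and 139.5, 85.1 and 90.8 at 48 h. All its 48 h libraries lay above all controls in both ploidies, with ratios of 1.81 and 1.66, and at 12 h the autotetraploid libraries lay below the diploid ones. LOC107429443 stood at 55.7, 77.1 and 42.7 CPM in control, 54.0, 37.7 and 32.2 at 6 h, 291, 289 and 300.5 at 12 h and 39.9, 60.3 and 81.8 at 48 h in the diploid. The autotetraploid libraries held 55.3, 70.6 and 52.1 CPM in control, 41.7, 53.2 and 40.6 at 6 h, 293, 304 and 403 at 12 h and 51.9, 61.0 and 71.4 at 48 h. Its 6 h libraries and its 48 h libraries overlapped control in both ploidies. Over all 25 genes, the 48 h libraries overlapped control for 18 genes in each ploidy. They lay above it for 4 in the diploid and 5 in the autotetraploid, of which 3 were shared. They lay below it for 3 and 2, of which 1 was shared. The rule had confined the 48 h to control ratio, which favours overlap. No share of all genes placed in these ways is given, so these counts only describe the 25 genes.

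**Figure D3:**
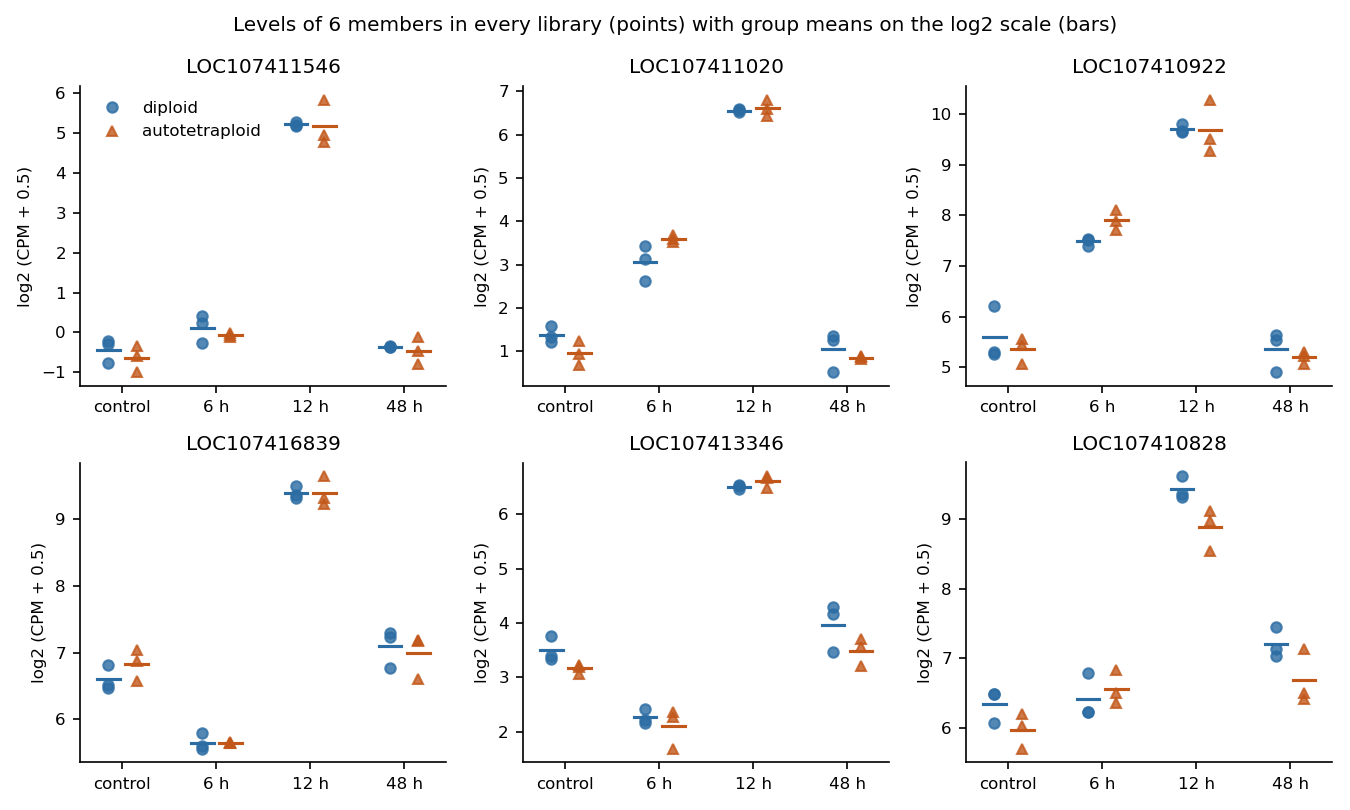
Levels of 6 of the genes in every library, as log2 (CPM + 0.5), by treatment; blue circles are diploid, orange triangles autotetraploid, and bars are group means on the log2 scale. LOC107411546 lies below 1 on this axis in all groups but 12 h, LOC107416839 and LOC107413346 dip at 6 h, and LOC107410828 stays above its controls at 48 h.

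Replicates at 12 h were less alike in the autotetraploid. The median coefficient of variation (CV, the SD as a percentage of the mean) over the 25 genes at 12 h was 7.17% in the diploid and 19.5% in the autotetraploid, and it was larger in the autotetraploid for 20 of 25. Over all LOC genes with a 12 h mean of at least 5 the medians were 9.23% and 12.4%. Autotetraploid 12 h replicate 3 held the highest of the 3 values for 13 of the 25 genes and replicate 2 the lowest for 17. The median ratio of replicate 3 to the mean of the other 2 was 1.23, and that of replicate 2 was 0.828. In diploid control, replicate 1 held the lowest value for 15 genes, with a median ratio of 0.785. Replicate 1 was likewise lowest for 16 genes in the diploid at 48 h, with a median ratio of 0.778, and replicate 3 for 15 genes in the autotetraploid at 6 h, with a median ratio of 0.915. The rule gave 29 genes without autotetraploid 12 h replicate 2, the 25 among them, and 22 of the 25 without replicate 3. What part the spread of these libraries has in the ploidy comparisons was not tested beyond leaving each library out in turn.

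A test of the peak itself needs libraries that did not choose the genes. The rule was therefore applied to 1 ploidy alone and the genes it gave were tested in the libraries of the other, with edgeR's quasi-likelihood test fitted to all 24 libraries and Benjamini-Hochberg adjustment over 25829 genes, called at an adjusted p of 0.05. The fold changes then come from the libraries of the other ploidy. The spread of each gene, however, was estimated over all 24 libraries, including those that chose it. The p-values and calls are thus not fully free of the choice. The diploid libraries alone gave 37 genes, all of them tested. In the autotetraploid, 36 of the 37 were called higher at 12 h than in control, where 14% of all genes tested were called higher. Their median log2 fold change was 3.08, against 0.02 over all genes tested, and the exception was LOC107409355 with 1.57 ± 1.69 (SE) and an adjusted p of 0.54. At 12 h against 6 h, 26 of the 37 were called higher in the autotetraploid, where 2.92% of all genes were, with a median of 1.32. Among the 12 h peak genes, LOC107412240, LOC107413074 and LOC107418084 were not called in this comparison. Their adjusted p-values from edgeR were 0.076, 0.059 and 0.17. These genes also had to reach 2 times the 6 h mean in the autotetraploid. Their p-values thus follow a choice on the same values and only describe them.

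The autotetraploid libraries alone gave 38 genes, which were read in the diploid. There 34 of the 38 were called higher at 12 h than in control, where 14.6% of all genes were, with a median log2 fold change of 2.65. The 4 genes not called were LOC107404505, LOC107408909, LOC107419280 and LOC107421019, and of these LOC107419280 alone had a fitted change below 0, at -1.12 ± 2.11 (SE), a gene high in single libraries of several groups. At 12 h against 6 h, 26 of the 38 were called higher in the diploid, where 2.56% of all genes were, with a median of 1.62. Among the 12 h peak genes, LOC107413074 and LOC107418084 were not called there, each with an adjusted p of 0.060 from edgeR. Both also had to reach 2 times the 6 h mean in the diploid, so these values only describe them. Most genes chosen in 1 ploidy but not the other were missed on ratios or overlap rather than on direction. Of 12 genes that met the rule in the diploid alone, all 12 had 12 h means at least 2 times control in the autotetraploid, and 8 failed the 12 h to 6 h ratio there. Of 13 that met it in the autotetraploid alone, 12 had a higher 12 h mean than control in the diploid, 11 of them at least 2 times, and 9 failed the ratio of 4. The genes named in this comparison and not among the 25 were chosen after their values were seen.

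The levels at 6 h and 48 h were read in the same way. At 6 h, 26 of the 37 diploid-chosen genes were called higher than control in the autotetraploid (12.7% of all genes were) and 3 were called lower (12.4% of all genes were). Of the 38 autotetraploid-chosen genes, 20 were called higher in the diploid (11.4% of all genes) and 4 lower (9.93% of all genes). The counts called lower were near or below the shares of all genes, so they are no result about these genes as a set. The genes called lower at 6 h included the same 3 in both readings. These 3 are the genes named for the lowest 6 h to control ratios, so their p-values follow a choice on the same values. In the diploid the log2 fold change of LOC107413346 was -1.35 ± 0.20, that of LOC107416839 -0.97 ± 0.17 and that of LOC107426319 -1.58 ± 0.55 (SE). In the autotetraploid they were -1.14 ± 0.20, -1.22 ± 0.17 and -1.54 ± 0.55 (SE). Adjusted p-values from edgeR for LOC107413346 were 8.33e-05 in the diploid and 0.00035 in the autotetraploid, and for LOC107416839 0.00031 and 2.62e-05. For LOC107426319 the adjusted p was 0.046 in both. The other gene called lower in the diploid was LOC107411330, at -0.46 ± 0.16 (SE) with an adjusted p of 0.046 from edgeR. LOC107413346 and LOC107416839 were called lower in all 6 fits that left out 1 of the libraries compared, in each ploidy. LOC107426319 was called in 1 of the 6 in each ploidy and LOC107411330 in 2 of the 6. The diploid count of 4 was thus 2 to 3 with 1 library left out, with 2 genes left without control replicate 2, 6 h replicate 1 or 6 h replicate 2, and it was also 2 with library totals, without the filter and with only the libraries compared.

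At 48 h few genes of any kind were called, so a lack of calls is not read as a return to control. In the ploidy that chose the genes, the rule had also confined the 48 h to control ratio. For the 12 h peak genes among them it had confined this ratio in both ploidies. Of the 37 diploid-chosen genes 5 were called higher than control in the autotetraploid (6.08% of all genes) and 3 lower (7.43% of all genes). Of the 38 autotetraploid-chosen genes 2 were called higher in the diploid (1.1% of all genes) and 1 lower (0.91% of all genes). LOC107410828 and LOC107415487 were called higher at 48 h in both readings. For LOC107410828 the log2 change was 0.88 ± 0.22 in the diploid (adjusted p from edgeR 0.049) and 0.79 ± 0.22 in the autotetraploid (adjusted p 0.026). For LOC107415487 it was 0.70 ± 0.17 (adjusted p 0.044) and 0.94 ± 0.17 (adjusted p 0.0023). The diploid calls rest on all 3 libraries of each group: leaving out any 1 diploid control or 48 h library left 0 such calls. LOC107413852 and LOC107433689 were called lower at 48 h in the autotetraploid, by log2 changes of -0.50 ± 0.16 and -0.999 ± 0.264 (SE), with adjusted p-values from edgeR of 0.045 and 0.018. LOC107433689 was chosen after its values were seen. LOC107410828, LOC107415487, LOC107413852 and LOC107433689 are all 12 h peak genes, and they are named here because they were called. Their p-values at 48 h thus follow a choice on the same values and only describe them. The further calls were LOC107427994, LOC107429285 and LOC107429325 (higher) and LOC107409355 (lower) in the autotetraploid, and LOC107404505 (lower) in the diploid. LOC107409355 and LOC107404505 had almost no counts at 48 h. Leaving out 1 autotetraploid control or 48 h library brought the number of genes called lower there to between 0 and 2, and the number called higher to between 2 and 6.

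**Figure D4:**
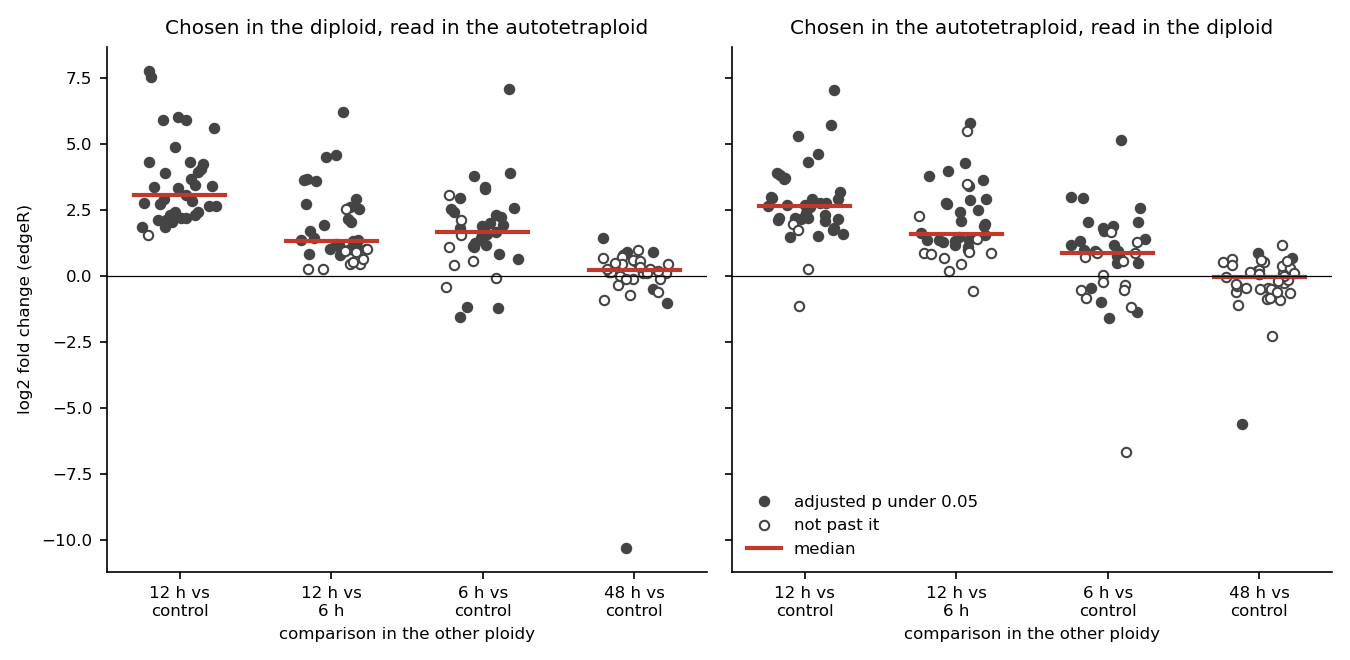
Log2 fold change from edgeR of the 37 genes chosen in the diploid alone, read in the autotetraploid (left), and of the 38 chosen in the autotetraploid alone, read in the diploid (right), in 4 comparisons; filled points have an adjusted p under 0.05, open points do not, and red bars are medians (3.08, 1.32, 1.68 and 0.24 on the left; 2.65, 1.62, 0.88 and -0.01 on the right). The lowest points belong to LOC107409355 (left) and LOC107404505 (right), which had almost no counts at 48 h, and to LOC107419280 (right), whose libraries differed widely within groups; their fitted sizes are no bounds.

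The autotetraploid was compared with the diploid within each treatment, and all 25 genes entered the test. The rule set no ratio between the ploidies, but every criterion had to hold in both, which removed 12 genes that met it in the diploid alone and 13 that met it in the autotetraploid alone. A low number of ploidy differences is therefore partly fixed by the choice of genes, and no likeness of the ploidies is read from it. The 25 genes were read in the same libraries, so they are not replicates. Medians over them and counts of genes above 0 are a description. In the controls the median log2 difference, autotetraploid minus diploid, was -0.37 over the 25 genes, against 0.00 over all genes, and 21 of the 25 were not above 0. None was called by edgeR (0% of all genes were called), the smallest adjusted p being 0.42. At an unadjusted p under 0.05 there were 4 genes, all lower in the autotetraploid, where 8.63% of all genes were under it. The median of the 25 lay between -0.45 and -0.29 when any 1 control library was left out. LOC107432392 had the smallest p of these, at 4.26 ± 1.36 CPM in the diploid and 2.82 ± 0.243 CPM in the autotetraploid (SD, n = 3), and its groups did not overlap.

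At 6 h the median difference was 0.17, 19 genes were above 0, and 0 were called by edgeR (0% of all genes; smallest adjusted p 0.60). An unadjusted p under 0.05 was reached by 3 genes, all higher in the autotetraploid, and by 7.43% of all genes. Leaving out 1 of the 6 h libraries gave medians of 0.19 to 0.31, the largest without diploid replicate 3 (0.31) and diploid replicate 2 (0.29), with 16 to 19 genes above 0. At 12 h the median difference was 0.02, and it ran from -0.09 without autotetraploid replicate 3 to 0.10 without autotetraploid replicate 2, so its sign was not stable. Of the 25 genes 0 were called by edgeR (0.0194% of all genes; smallest adjusted p 0.85), and 3 had an unadjusted p under 0.05, all lower in the autotetraploid (5.31% of all genes). LOC107410828 was the gene with the smallest p at 12 h, at 689 ± 78.6 CPM in the diploid and 475 ± 93.7 in the autotetraploid (SD, n = 3), a log2 difference of -0.58 ± 0.22 (SE) with an adjusted p from edgeR of 0.85. At 48 h the median difference was -0.17, with 0 genes called by edgeR (0.139% of all genes; smallest adjusted p 0.39) and 6 under an unadjusted p of 0.05, all lower in the autotetraploid (8.34% of all genes). The 48 h median was -0.07 without diploid replicate 3 and -0.11 without diploid replicate 2, and otherwise between -0.22 and -0.16. DESeq2 called 0 of the 25 in each of these 4 treatments, where it called 175, 115, 140 and 434 genes in all.

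Averaged over the 4 treatments, the median difference was -0.08 (from -0.11 to -0.02 with 1 library left out, nearest 0 without diploid 6 h replicate 3), and edgeR called 0 of the 25 (0.403% of all genes); 5 had an unadjusted p under 0.05, all lower in the autotetraploid, where 13.8% of all genes were under it. Over all genes the median was -0.006. LOC107421344 came nearest to a call, with a log2 difference of -0.62 ± 0.15 (SE) and an adjusted p from edgeR of 0.071. DESeq2 called this gene, at -0.61 ± 0.15 (SE) with an adjusted p of 0.0068, and so did edgeR without diploid 6 h replicate 1, with an adjusted p of 0.046. It stood at 2.23, 2.87 and 3.28 CPM in control, 4.77, 6.19 and 8.30 at 6 h, 19.4, 23.2 and 20.1 at 12 h and 2.10, 4.48 and 2.68 at 48 h in the diploid. In the autotetraploid it stood at 1.36, 1.66 and 2.04 CPM in control, 5.71, 6.79 and 3.92 at 6 h, 15.9, 16.5 and 10.2 at 12 h and 1.68, 1.15 and 2.09 at 48 h. Its diploid libraries lay above the autotetraploid ones in control, at 12 h and, by a narrow margin, at 48 h, and overlapped them at 6 h. On the authors' FPKM scale its peak was lower. The FPKM values were 1.48, 1.90 and 2.12 in diploid control, 1.60, 1.53 and 2.74 at 6 h and 4.68, 5.98 and 5.20 at 12 h, so that 6 h overlapped control. In the autotetraploid they were 0.791, 0.973 and 1.26 in control and 1.93, 1.81 and 1.51 at 6 h, without overlap. The mean at 12 h was 2.89 times control in FPKM and 7.47 times in CPM without a pseudocount in the diploid, and 3.67 and 8.41 times in the autotetraploid. For the other 24 genes the FPKM ratio was 0.882 to 1.23 times the CPM ratio. This gene was chosen after its values were seen, as was LOC107432392.

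**Figure D5:**
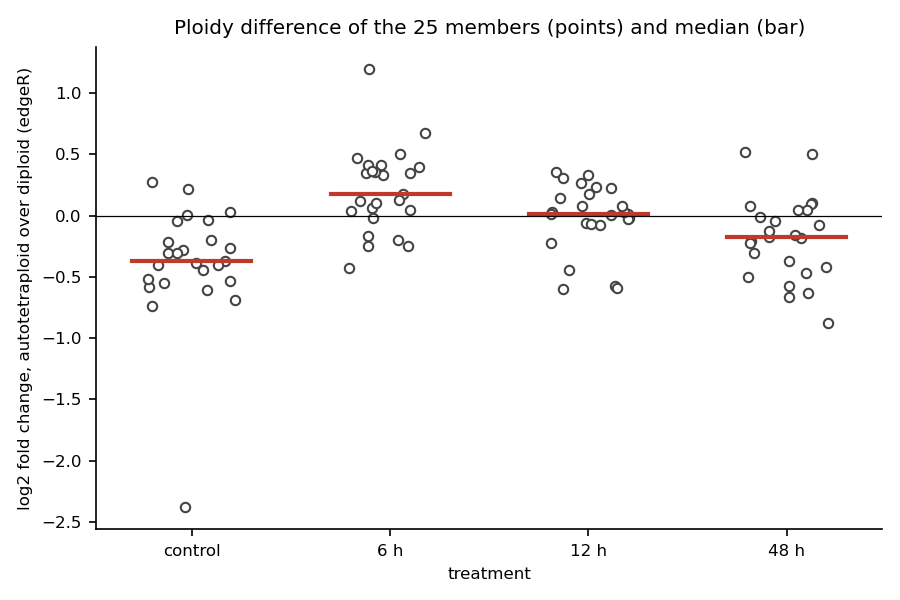
Log2 fold change from edgeR of the autotetraploid over the diploid for each of the 25 genes (open circles) in control and at 6, 12 and 48 h of drought, with medians (red bars) at -0.37, 0.17, 0.02 and -0.17. The point near -2.4 in control is LOC107418084, which had 0 counts in 2 of the 3 autotetraploid control libraries.

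The difference between the ploidies in the response to drought was read from an interaction term, as a description. Each gene had to reach the ratios over control and over 6 h in both ploidies, so genes with unequal responses had been removed (9 of the 13 genes that met the rule in the autotetraploid alone had failed the ratio over control in the diploid), and a lack of calls here is no result. The 6 h to control ratio was larger in the autotetraploid for 22 of the 25 genes and the 12 h to control ratio for 19. The 12 h to 6 h ratio was larger in the autotetraploid for 9. For 6 h against control the median difference of log2 changes, autotetraploid minus diploid, was 0.50 over the 25 genes and -0.02 over all genes, and 23 of the 25 were above 0. None was called by edgeR (0% of all genes; smallest adjusted p 0.72) or by DESeq2, which called 98 genes in all. An unadjusted p under 0.05 was reached by 8 of the 25, all with the larger change in the autotetraploid, and by 6.39% of all genes. Leaving out any 1 of the 12 libraries moved the median to between 0.39 and 0.67, with 20 to 24 genes above 0. This contrast uses the controls that were lower in the autotetraploid, so it is not independent of the control difference. The 25 genes share these 12 libraries, so the number above 0 is not a count of separate observations.

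LOC107421020 had the smallest p of the 6 h interaction, at 1.21 ± 0.33 (SE) with an adjusted p from edgeR of 0.72. It stood at 2.66, 2.60 and 2.30 CPM in control, 4.59, 3.04 and 5.81 at 6 h, 17.5, 16.8 and 19.7 at 12 h and 2.92, 4.69 and 3.77 at 48 h in the diploid. Autotetraploid levels were 1.92, 1.43 and 1.92 CPM in control, 5.86, 6.41 and 9.35 at 6 h, 25.1, 17.5 and 22.5 at 12 h and 2.27, 2.41 and 2.82 at 48 h. Its autotetraploid controls lay below the diploid ones and its autotetraploid 6 h libraries above them, by a ratio of 6 h to control of 3.42 against 1.65. For LOC107411020 the interaction was 1.06 ± 0.35 (SE), with an adjusted p of 0.77 from edgeR. LOC107421020 was chosen after its values were seen.

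For 12 h against control the median difference over all genes was 0.003. Over the 25 genes it was 0.32, and 19 of them were above 0. This median was unstable: it was 0.08 without autotetraploid 12 h replicate 3 (16 genes above 0), 0.13 without diploid control replicate 3, 0.14 without diploid control replicate 2, 0.20 without autotetraploid control replicate 1, and up to 0.43 without autotetraploid 12 h replicate 2. None was called by edgeR (0% of all genes; smallest adjusted p 1) or by DESeq2, which called 80 genes in all. Of the 25, 4 had an unadjusted p under 0.05, all with the larger change in the autotetraploid (4.69% of all genes).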

How the data were processed

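For 24 libraries the authors deposited gene counts in a single table and FPKM values in 8 tables, 1 for each group. The counts are whole numbers per gene; the unit FPKM of the authors' other tables was inferred from their values, since the headers name only libraries. HISAT2 (an aligner) and StringTie (a transcript assembler) are listed, per the submitters' processing notes, with no version. For genome build, annotation and strand setting, nothing is given in the sources used here. The 25 genes, and the tests applied to them, were chosen with earlier results of these data known.

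From the counts, CPM was computed from library totals, and the rule was applied to group means plus 0.5. Tests used edgeR 4.0.16 in R 4.3.3 (filterByExpr, TMM, robust quasi-likelihood fit, 1 mean per group over all 24 libraries), with Benjamini-Hochberg adjustment over the 25829 genes kept; all 25 genes were kept, a filter that genes high at 12 h pass readily. DESeq2 1.42.0 was an alternative. The scripts were tested on simulated counts. P-values measure the spread between libraries, which may be technical. Other alternatives were size factors, totals, no filter, a replicate block, fits of only the libraries compared, and each library left out.

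Genes named were the 10 with the largest smaller 12 h to control ratio, the 10 highest at 12 h, the 3 highest and 3 lowest at 6 h, those nearest the threshold and any called in a ploidy contrast; others are marked as chosen after their values were seen. Promoter motifs, protein sequences and functional gene lists were not analysed here, since the sources used give neither sequences nor descriptions. RefSeq coordinates are not printed, because the build of the counts is unknown.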

Additional observations from a re-analysis of the deposited data

How the results depend on the processing

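The number of genes meeting the rule was 25, and it was 20 with TMM-scaled CPM, 24 with a pseudocount of 0.1, 22 with 1, 32 at 3 times control, 9 at 8 times control and 18 with 48 h between 0.67 and 1.5 times control; leaving out 1 library gave 22 to 30. The median CPM at 48 h in the autotetraploid was 3.03 and became 3.20 with TMM factors. Of the 25 genes, the number called in the mean over treatments went from 0 to 1 with DESeq2, and to between 0 and 1 when 1 library was left out; the other ploidy counts stayed at 0. For genes chosen in the diploid and read in the autotetraploid, leaving out 1 library gave 34 to 36 (12 h over control), 23 to 27 (12 h over 6 h), 23 to 27 (6 h higher), 2 to 3 (6 h lower), 2 to 6 (48 h higher) and 0 to 2 (48 h lower). For those chosen in the autotetraploid and read in the diploid it gave 29 to 32, 25 to 26, 16 to 20, 2 to 3, 0 to 0 and 0 to 1. Fitting only the libraries compared gave 1 gene higher and 1 lower at 48 h in the autotetraploid, and in the diploid 0 higher and 0 lower at 48 h and 2 lower at 6 h. Without the filter the autotetraploid had 1 lower at 48 h, and the diploid 0 higher at 48 h and 2 lower at 6 h. Library totals gave 2 lower at 6 h and 1 higher at 48 h in the diploid, DESeq2-style size factors 1 higher, and DESeq2 itself 2 lower at 48 h. The cause of these shifts was not tested, beyond fewer libraries in the fits that drop some.

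Libraries with the same replicate number showed little shared deviation. Over 24 pairs of same-numbered libraries, 3 for each of 8 pairs of groups, the correlations of deviations from group means ran from -0.098 to 0.061. Differently numbered libraries were not compared, and the labels do not say whether the replicate numbers pair the libraries. With the replicate block, the diploid had 1 gene higher and 0 lower at 48 h, and 0 of the 25 genes were called in any ploidy contrast. The 6 h and 48 h readings in the other ploidy and the 6 h interaction were added after the data had been seen. Levels under 1 CPM rest on few reads.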
